A study of Mus musculus with 6 samples.

Results

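Huntingtin and 7 of its binding partners were compared between 2 mouse embryonic stem cell (mESC) lines, R1 and HN. The members are the rows of the deposited gene table that carry the symbols Htt, Hap1, Hip1, Hip1r, Zdhhc17, Zdhhc13, Hypk and Pcm1, that is 8 of 23412 genes, and all 8 passed the filter on low values. The rule takes symbols of known huntingtin-binding proteins and uses no measured value, although it was set with earlier results of these data known. R1 is the wild type line and HN is its Htt-null counterpart, in which the promoter and exon 1 of Htt had been deleted on both alleles. Both lines are of the 129Sv strain, and both were kept undifferentiated, without feeder cells, in medium with LIF and 3 kinase inhibitors (SU5402, PD184352 and CHIR99021). RNA sequencing was done on 3 libraries per line. Replicates of the same number share a collection date in the sample labels, so that the libraries form 3 same-date pairs. There was 1 line per genotype, and a difference between the lines cannot be told apart from any other difference between these lines.

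Huntingtin is a large scaffold protein with a glutamine stretch near its N-terminus, encoded by exon 1 of the gene, and the lengthening of this stretch in the human protein causes Huntington's disease. It moves vesicles along microtubules by binding motor complexes through adaptors such as Hap1, takes part in endocytosis and ciliogenesis, and binds transcription regulators. Mouse embryos without huntingtin die early in development, although mESCs without it can be grown. The partners described here sit at different places of this network: the motor adaptor Hap1, the clathrin and actin binding proteins Hip1 and Hip1r, the palmitoyltransferases Zdhhc17 and Zdhhc13 that attach a fatty acid to huntingtin, the chaperone-like protein Hypk of the N-terminal acetylation machinery, and the centriolar satellite scaffold Pcm1.

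GENCODE M21 (mouse build GRCm38) places Htt (ENSMUSG00000029104.15) on chromosome 5, plus strand, between 34761740 and 34912534. Its main transcript has 67 exons and 13215 bases. Exon 1 lies from 34761744 to 34762109 and is 366 bases long, which is 2.77% of this transcript. The other 66 exons hold 97.2% of it, and all annotated exons of the gene together cover 24438 bases. The ends of the deletion are not given in the sources used here, and the sequences below show the wild type DNA of the deleted elements. The first is the 250 bases before the start of Htt (RefSeq promoter table, GRCm38.p6, chr5:34761490-34761739, plus strand). Its capitals mark matches to GGGCGG on either strand, the letters of a GC box, the kind of element bound by Sp1 family factors. The second is the coding part of exon 1 (GRCm38, chr5:34761907-34762109, plus strand), with the glutamine codons of the repeat in capitals.
Htt promoter: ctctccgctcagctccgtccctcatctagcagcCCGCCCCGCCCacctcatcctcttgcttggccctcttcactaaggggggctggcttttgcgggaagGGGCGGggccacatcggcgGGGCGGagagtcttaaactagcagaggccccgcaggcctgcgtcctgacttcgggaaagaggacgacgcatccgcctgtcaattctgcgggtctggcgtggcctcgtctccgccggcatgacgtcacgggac
Htt exon 1, coding part: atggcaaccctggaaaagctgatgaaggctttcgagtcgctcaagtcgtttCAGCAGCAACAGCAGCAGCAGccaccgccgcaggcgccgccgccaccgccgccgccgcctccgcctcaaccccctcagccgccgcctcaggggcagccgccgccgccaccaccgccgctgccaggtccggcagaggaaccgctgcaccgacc
The promoter held 4 matches to GGGCGG, of which the first 2 overlap, and no match to TATAAA on either strand. Of 32851 mouse promoters of the same length, 32.7% held at least 1 GGGCGG, 8.47% held at least 3 and 12.4% held TATAAA. The Htt promoter also held 22 CpG dinucleotides, against a median of 6 over all promoters. The glutamine run starts at codon 18 and has 7 codons, 6 of them CAG and 1 CAA. These matches describe the letters only.

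The libraries held between 1640391 and 3866717 reads on genes. The pluripotency markers, Pou5f1 (Oct4), Nanog and Sox2 among them, summed to between 15328 and 21757 normalized counts in the R1 libraries and between 17056 and 23563 in the HN libraries, and the ranges overlap. Single markers moved in opposite directions within this sum. With the replicate block, which compares the lines within each collection date, 5 of the 10 were higher and 2 lower in HN (limma). Over all tested genes these shares were 5.46% and 4.02%. Without overlap between the lines, Zfp42 (Rex1) was at 57.8% of R1 (limma with the block, adjusted p = 6.37e-08) and Utf1 at 49.0% (1.34e-05). Also without overlap and by the same test, Tfcp2l1 was at 149% (1.64e-05), Klf4 at 143% (0.000896) and Nanog at 121% (0.0305). Klf4 and Nanog were named after their values were seen. None of the 10 passed without the block by limma (lowest adjusted p = 0.195, for Zfp42), while DESeq2 without it called Zfp42 (adjusted p = 0.000404). Neuron markers summed to between 747 and 1177 in R1 and between 556 and 644 in HN. This sum came mostly from Stmn2 and Tubb3, with log2 fold changes of -0.77 and -0.76. Both passed with the block (limma, adjusted p = 1.17e-05 and 0.000745) and neither without it (limma, 0.463 and 0.715), although Stmn2 passed without it by DESeq2 (adjusted p = 0.0456). The other tested neuron markers were split in direction and did not pass with the block. Elavl3 was at -0.49 (limma with the block, adjusted p = 0.369). Map2 was at 0.43 (0.449) and Rbfox3 at 0.16 (0.863) in the same test, both named after their values were seen. Dcx, Snap25 and Syt1 were under a mean of 5 normalized counts. The summed levels of the trophoblast, mesoderm, neural progenitor and fibroblast markers, with at most 233 in a library, overlapped between the lines. Among their genes, T (1.21, adjusted p = 0.001) and Eomes (0.96, 8.57e-05) were higher and Tfap2c (-0.74, 0.0132) and Thy1 (-1.54, 0.00112) lower in HN, by log2 fold change and limma with the block. None of them passed without the block (limma, lowest adjusted p = 0.553, for Thy1). By DESeq2 with the block Eomes passed (adjusted p = 0.00725), T (0.0698) and Tfap2c (0.167) did not, and Thy1 had no adjusted p. Replicate 3 of both lines stood apart in several of these lists. Its primitive endoderm markers summed to 159 in R1 and 142 in HN against 36.2 to 62.1 in the other 4 libraries, and its neural progenitor markers to 194 and 180 against 57.0 to 96.1. The mesoderm sums were 113 and 128 against 23.4 to 89.3, and the fibroblast sums 106 and 69.3 against 12.8 to 54.3. Results are therefore also given without replicate 3 of both lines, as a check added after seeing the data.

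Htt mRNA was reduced in HN mESCs but was not at 0. The R1 libraries held 230, 257 and 199 normalized counts of Htt in replicates 1, 2 and 3, and the HN libraries held 18.3, 58.1 and 54.2. The lines did not overlap, and HN replicate 1 was the lowest library. The mean fell from 229 ± 29.0 in R1 to 43.5 ± 21.96 in HN (SD, n = 3 each), so that 19.0% of the R1 level was counted in HN. The log2 fold change of HN against R1 was -2.52 ± 0.37 (SE), with a 95% confidence interval from -3.34 to -1.71 (limma, adjusted p = 0.0141). This was the 9th lowest log2 fold change of the 14276 genes tested. With the replicate block the adjusted p was 1.6e-11 by limma (SE 0.20) and 3.1e-05 by DESeq2. The log2 differences of the same-date pairs were -3.58, -2.13 and -1.86. Since limma draws the variance of a gene toward a trend over all genes, its p does not measure the spread of these differences alone. Without R1 replicate 1 the decrease missed the threshold (limma, adjusted p = 0.110), and without replicate 3 of both lines the log2 fold change was -2.86 (limma, adjusted p = 0.0337).

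The size of the decrease in Htt differed between the dates. HN held 7.94% of the R1 level in the pair of replicate 1, 22.6% in the pair of replicate 2 and 27.1% in the pair of replicate 3. The HN values rest on 15, 82 and 50 reads, with exact Poisson 95% intervals of 10.2 to 30.1, 46.2 to 72.1 and 40.2 to 71.4 normalized counts. The interval of HN replicate 1 does not reach those of the other HN libraries, while those of replicates 2 and 3 overlap, and such intervals cover counting error only. All 3 read counts are above 3 reads, the level taken as the detection limit. The table gives 1 value per gene, so that the part of the gene from which the remaining reads came was not analysed here, and in bulk RNA fewer cells with a transcript cannot be told apart from less transcript per cell. No exon of Htt overlaps an exon of another annotated gene, and 0.106% of the 50-base stretches of its transcripts also occur in transcripts of other genes.

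**Figure D1:**
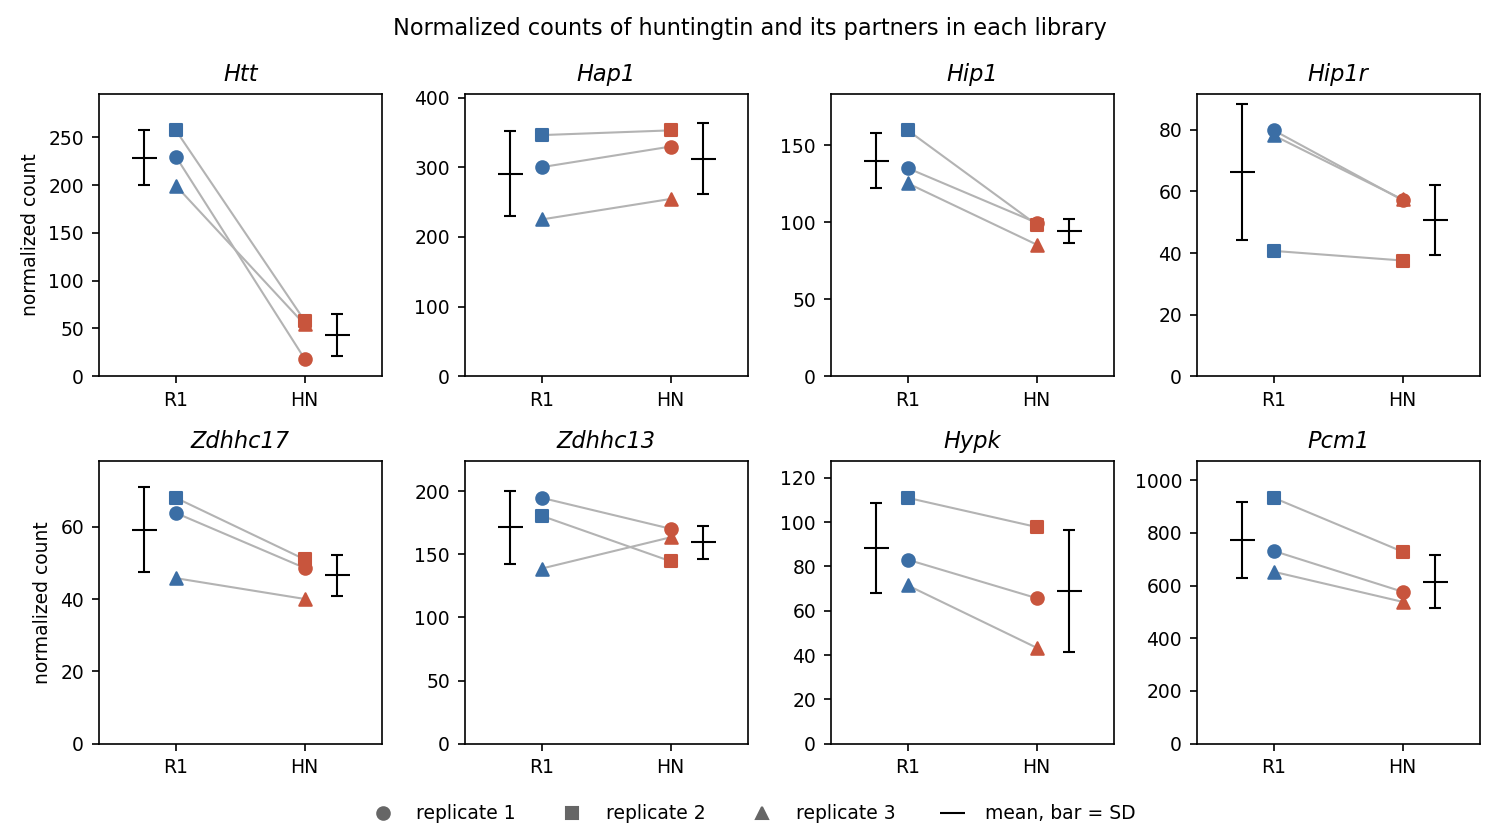
Normalized counts (y axis, from 0, own scale per gene) of the 8 genes in the 3 R1 and the 3 HN libraries. Symbols mark the replicate, grey lines join libraries of the same collection date, and the black bars give the mean and SD (n = 3). The lines do not overlap for Htt and Hip1, and the Htt values drop from between 199 and 257 to between 18.3 and 58.1.

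Hap1, huntingtin-associated protein 1, couples huntingtin and its vesicle cargo to dynactin and kinesin. It is best known from neurons, and per kb of main transcript it had the highest mean level of the 8 genes in both lines. Normalized counts of Hap1 were 300.2, 346 and 225 in R1 and 330, 353 and 255 in HN. Each HN library was above the R1 library of its date, at 110%, 102% and 113% of it, and the lines overlapped widely. The estimate for Hap1 was a log2 fold change of 0.11 ± 0.22 (SE), with a 95% interval from -0.37 to 0.59 (limma, adjusted p = 0.99998), and within dates the interval was -0.11 to 0.33. A change of Hap1 by more than these bounds is outside the interval, and a smaller change could not be told from 0. Replicate 3 of both lines was the lowest of its line.

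Hip1, huntingtin-interacting protein 1, binds clathrin, the AP2 adaptor and membrane lipids during endocytosis. The R1 libraries held 135, 160 and 125 normalized counts and the HN libraries 99.8, 98.5 and 85.6. Every HN library lay below every R1 library. R1 averaged 140 ± 17.7 and HN 94.6 ± 7.87 normalized counts (SD, n = 3 each), so that HN held 67.5% of R1, with 73.8%, 61.7% and 68.3% in the 3 same-date pairs. The log2 fold change of -0.56 ± 0.21 (SE, 95% interval from -1.01 to -0.10) did not pass the test without the block (limma, adjusted p = 0.676), and it passed with the block (limma, adjusted p = 0.00837). On the recovered reads with the block, the adjusted p was 0.00285 by edgeR and 0.127 by DESeq2. Without replicate 3 of both lines the log2 fold change was again -0.56 (limma, adjusted p = 0.593, and 0.00993 with the block).

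Hip1r, the closest relative of Hip1, also binds clathrin and ties it to actin filaments. Its normalized counts were 79.8, 40.7 and 78.2 in R1 and 57.2, 37.6 and 57.4 in HN. In both lines replicate 2 was the lowest, and the lines overlapped. HN was below R1 in all 3 same-date pairs, at 71.6%, 92.3% and 73.4%, and the log2 fold change was -0.34 ± 0.32 (SE, 95% interval from -1.03 to 0.35, limma, adjusted p = 0.99998). With the block the adjusted p was 0.302 (limma). An exonic overlap of 12.5% with Vps37b, which lies on the opposite strand, adds uncertainty, since the library kit does not mark strand.

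Zdhhc17 (HIP14) is a palmitoyltransferase known to modify huntingtin, and its ankyrin repeats bind huntingtin directly. In R1 it stood at 63.9, 68.1 and 45.8 normalized counts and in HN at 48.7, 51.0 and 40.1. HN was the lower library of each date, at 76.2%, 75.0% and 87.4% of R1, while the lines overlapped through replicate 3 of R1. The log2 fold change of -0.33 ± 0.26 (SE, 95% interval from -0.90 to 0.24) did not pass the test without the block (limma, adjusted p = 0.99998) or with it (adjusted p = 0.345).

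Zdhhc13 (HIP14L) is the other palmitoyltransferase with ankyrin repeats. Its values were 195, 181 and 139 normalized counts in R1 and 170, 145 and 164 in HN. HN was lower in the pairs of replicates 1 and 2 and higher in the pair of replicate 3, so that the dates did not share a direction. Its log2 fold change was -0.09 ± 0.21 (SE, 95% interval from -0.55 to 0.36, limma, adjusted p = 0.99998, and 0.767 with the block).

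Hypk, huntingtin-interacting protein K, has chaperone-like activity and associates with the N-terminal acetyltransferase NatA. R1 libraries held 83.0, 111 and 71.4 normalized counts and the HN libraries 65.7, 97.8 and 43.3. HN was lower on each date, at 79.1%, 88.2% and 60.6% of R1, and replicate 2 was the highest library of each line. For Hypk the log2 fold change was -0.41 ± 0.31 (SE, 95% interval from -1.08 to 0.27, limma, adjusted p = 0.99998, and 0.137 with the block). The Hypk value is uncertain in itself, because 52.0% of its exonic bases overlap other genes, 35.9% with Serf2 on the same strand and 29.9% with Serinc4 on the opposite strand.

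Pcm1, pericentriolar material 1, scaffolds the centriolar satellites and is bound by Hap1 and huntingtin. The R1 libraries held 731, 933 and 652 normalized counts and the HN libraries 577, 729 and 538. The lines overlapped because replicate 2 was high in both, yet within each date HN held a similar part of R1, namely 78.9%, 78.1% and 82.5%. The means were 772 ± 145 in R1 and 615 ± 101 in HN (SD, n = 3 each). The log2 fold change of -0.32 ± 0.20 (SE, 95% interval from -0.77 to 0.12) did not pass the test without the block (limma, adjusted p = 0.99998) and passed with it (limma, adjusted p = 0.0198, interval from -0.51 to -0.14). On the recovered reads with the block, the adjusted p was 0.0135 by edgeR and 0.0499 by DESeq2. Without replicate 3 of both lines the log2 fold change was -0.35 (limma, adjusted p = 0.797, and 0.00741 with the block).

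**Figure D2:**
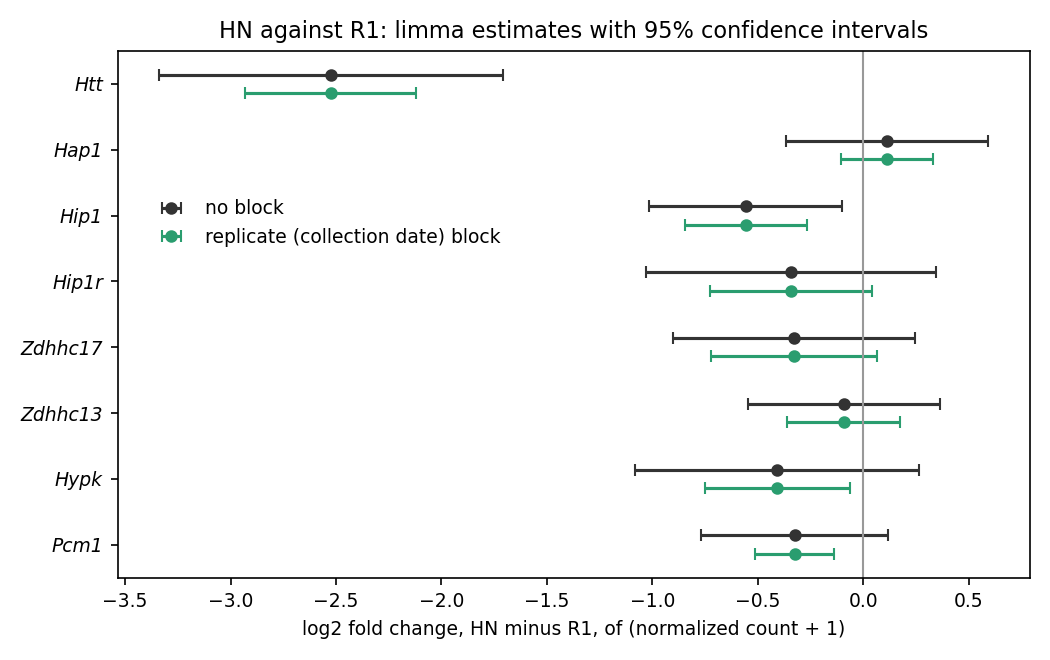
Log2 fold change of HN against R1 (x axis, limma on normalized counts plus 1) of each gene, with 95% confidence intervals without the block (black) and with the replicate block (green). Htt stands at -2.52, and with the block the intervals of Hip1, Hypk and Pcm1 also lie below 0. The intervals are not adjusted for the number of genes, and Hypk did not pass with the block (limma, adjusted p = 0.137).

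Counted over the 8 genes, 1 was lower in HN past the adjusted p of 0.05, and it was Htt. Over all tested genes 0.126% were called lower. None of the 8 was higher, where the background was 0.119%. Htt is the gene deleted in HN, so that its place in these counts was set by the design. Of the 7 partners without Htt, 0 were called lower and 0 higher. At an unadjusted p under 0.05, 2 members were lower and 0 higher (2.75% and 3.15% of all tested genes), and edgeR and DESeq2 without the block gave the same counts at both thresholds. With the replicate block 3 members were lower (Htt, Hip1 and Pcm1) and 0 higher, against 4.02% and 5.46% of all tested genes. Without Htt these were 2 lower and 0 higher of the 7 partners. Without replicate 3 of both lines 1 member was lower without the block (0.145% of all tested genes) and 3 with it (6.64%).

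Other descriptions of the same values put the partners mostly on the lower side. Groups did not overlap for 2 members, Htt and Hip1, which were lower in HN in all libraries. Over all tested genes, 5.54% lay wholly lower and 5.23% wholly higher in HN. Without Htt, 1 of the 7 partners lay wholly lower and 0 wholly higher. HN was the lower library on all 3 dates for 6 members, Htt among them, and the higher one on all 3 dates for Hap1. The background was 21.1% lower and 20.3% higher. Without Htt, 5 of the 7 partners were lower and 1 higher on all 3 dates. The 7 partners had a median log2 fold change of -0.33, with values from -0.56 to 0.11, and the median over all tested genes was -0.01. Leaving out single libraries turned the sign for Hap1 (to -0.06 without R1 replicate 3) and for Zdhhc13 (to 0.0073 without R1 replicate 1), and for no other member. Of the 5 tested neuron markers, 2 were lower with the block by limma (Stmn2 and Tubb3), and 3 did not pass in either direction. Over all tested genes 4.02% were lower and 5.46% higher in this fit. The summed levels of the neuron markers did not overlap between the lines. The part of neuron marker levels in these counts was not tested.

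Per transcript length, the partners of huntingtin ranged widely in undifferentiated R1 mESCs. Hap1 had the highest level, at 137 ± 28.8 normalized counts per kb of its main transcript (SD, n = 3), followed by Pcm1 at 117 ± 21.8, and the libraries of these neighbours overlapped. Zdhhc13 came next at 71.1 ± 12.1 and overlapped neither neighbour. Hypk at 21.2 ± 4.87, Hip1 at 17.9 ± 2.26 and Htt at 17.3 ± 2.19 overlapped each other in turn. Zdhhc17 at 13.0 ± 2.60 lay below all R1 values of Htt, and Hip1r at 9.83 ± 3.29 overlapped Zdhhc17. The level of huntingtin mRNA per length in R1 was thus among the lower ones of the set, near those of Hip1 and Zdhhc17. Taken per kb of all annotated exons instead, Pcm1 (104) came before Hap1 (77.1). In HN, Htt moved from rank 6 to rank 8, at 3.29 ± 1.66 per kb. The Hypk value depends on the transcript taken, since its overlaps with neighbours and its transcript lengths are unsettled.

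**Figure D3:**
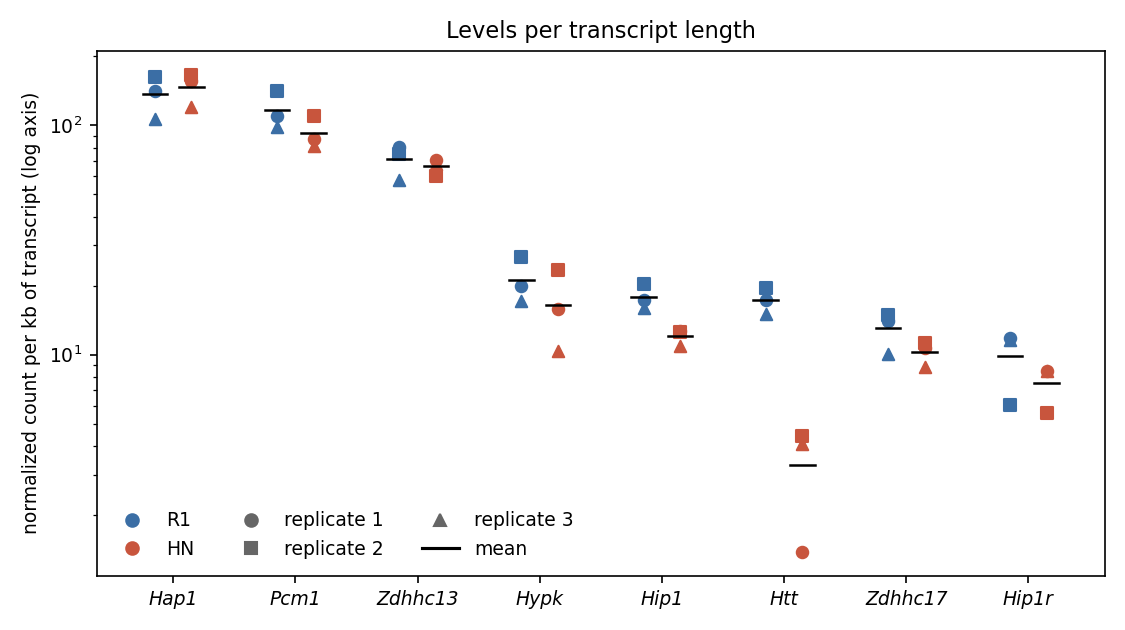
Normalized counts per kb of the main transcript (y axis, log scale) for each gene in the R1 (blue) and HN (red) libraries. Symbols mark replicates and black lines the means. The genes stand in the order of their R1 mean, from Hap1 at 137 to Hip1r at 9.83, and Htt in HN is the lowest at 3.29.

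The paired relatives were also compared within each library, where the scaling of a library drops out. On the log2 scale of normalized counts, Zdhhc17 lay 1.52 ± 0.11 below Zdhhc13 in R1 and 1.76 ± 0.26 below it in HN (SD, n = 3 each). The difference between the lines was -0.24 and had the same sign on all 3 dates (exact two-sided permutation test, p = 0.3). Hip1 lay 1.12 ± 0.71 above Hip1r in R1 and 0.91 ± 0.41 above it in HN, a difference of -0.22 that changed sign between dates (exact two-sided permutation test, p = 0.7). With 3 libraries against 3 the smallest p this test can give is 0.1. Without R1 replicate 2 the latter difference turned to 0.20.

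The other genes of the huntingtin network were taken from 8 lists, with 105 of 110 genes tested. None passed the adjusted p of 0.05 in either direction without the block by limma, edgeR or DESeq2. At an unadjusted p under 0.05, limma had 5 higher and 2 lower in HN, where the shares over all tested genes were 3.15% and 2.75%. With the block 11 were higher and 3 lower (limma), against 5.46% and 4.02% of all tested genes. By edgeR with the block 14 were higher and 4 lower, where 920 and 685 of all 14276 tested genes were. DESeq2 with the block called 3 higher and 0 lower, against 2.34% and 1.25%. These 3 were Ncor1, Prmt5 and Dync1h1. The other list genes named below as passing with the block passed by limma and not by DESeq2 with the block. The exception is Cltb, which passed by edgeR and by neither limma nor DESeq2. Without replicate 3 of both lines, limma with the block called 7 higher and 6 lower of 104 tested, against 6.52% and 6.64% of all genes, so that these counts lie near the background. The median log2 fold change of the 105 genes was 0.08.

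Among the transcription regulators bound by huntingtin, 16 genes were tested, their median log2 fold change was 0.23, and 3 were higher in HN with the block, where 5.46% of all tested genes were. Ncor1, the nuclear receptor corepressor, held 940, 1266 and 811 normalized counts in R1 and 1473, 1757 and 1179 in HN. It was higher in HN on each date, although the lines overlapped. Its log2 fold change was 0.55, with an adjusted p of 0.752 without and 3.03e-05 with the block (limma). Rcor1, the corepressor CoREST that works with REST, held 49.0, 60.7 and 40.4 normalized counts in R1 and 90.0, 75.8 and 61.7 in HN, with no overlap. It rose by 0.59 on the log2 scale with the block (limma, adjusted p = 0.0344, and 0.816 without it). The third was Rest, the repressor of neuronal genes, which was named after its values were seen (log2 fold change 0.32, limma with the block, adjusted p = 0.0267). Taf4a, a subunit of TFIID, had a log2 fold change of 0.35 and did not pass (limma with the block, adjusted p = 0.318).

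The NatA acetyltransferase, with which Hypk associates, had 5 genes tested, and all 5 were higher in HN on every date (20.3% of all tested genes), with a median log2 fold change of 0.36. Naa11, an alternative catalytic subunit, held 40.5, 27.4 and 41.8 normalized counts in R1 and 58.4, 78.0 and 60.6 in HN. The lines did not overlap, and the log2 fold change of 0.84 passed with the block only (limma, adjusted p = 0.551 without and 0.00785 with it). Naa50, the acetyltransferase bound to NatA, had a log2 fold change of 0.39 and passed with the block (limma, adjusted p = 0.0195). Naa10, the main catalytic subunit, had 0.36 and did not (limma with the block, adjusted p = 0.055).

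In the palmitoyltransferase family without Zdhhc17 and Zdhhc13, 17 of 22 genes were tested, with a median log2 fold change of 0.09. Zdhhc20 held 155, 147 and 121 normalized counts in R1 and 212, 234 and 167 in HN, and the lines did not overlap. Its log2 fold change of 0.52 passed with the block (limma, adjusted p = 0.00492, and 0.755 without it). Zdhhc7 held 68.1, 76.2 and 66.0 in R1 and 36.5, 56.0 and 49.8 in HN, again with no overlap, and its log2 fold change of -0.57 passed with the block (limma, adjusted p = 0.0487, and 0.817 without it). Zdhhc1 had a log2 fold change of -0.34 and did not pass (limma with the block, adjusted p = 0.55).

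Of the clathrin coat and AP2 adaptor genes, which act with Hip1 and Hip1r, 10 were tested and 0 passed with or without the block by limma. With the block 4.02% of all tested genes were lower and 5.46% higher, so that 0 of 10 lies near the background. The median of these 10 genes was -0.04. The values furthest from 0 were those of Ift57, a Hip1 partner and ciliary transport subunit (-0.49), Cltb, a clathrin light chain (-0.42), and Ap2a1, an AP2 subunit (0.30). With the block Cltb passed by edgeR (adjusted p = 0.0317) and not by limma (0.0877) or DESeq2 (0.386). Of the genes of the centriolar satellites, where Pcm1 acts, 11 of the 15 listed symbols were matched and tested, and the median was 0.08. Ahi1, a ciliary gene whose protein binds Hap1, held 152, 82.8 and 67.4 normalized counts in R1 and 87.6, 46.8 and 45.5 in HN, so that each date showed a decrease while the lines overlapped. Its log2 fold change was -0.72 (limma, adjusted p = 0.901 without and 0.00369 with the block). Dzip1, a ciliary basal body protein, was at 0.56 (limma with the block, adjusted p = 0.0373) and Cep63 at -0.38 (adjusted p = 0.279).

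The 12 motor genes that Hap1 and huntingtin engage had a median of -0.05. Dync1h1, the heavy chain of cytoplasmic dynein, held 1055, 918 and 566 normalized counts in R1 and 1142, 1186 and 840.4 in HN, which was higher on each date with overlap between the lines. Its log2 fold change of 0.35 passed with the block (limma, adjusted p = 0.013). The neuronal kinesin heavy chain Kif5c, at 0.49, did not pass (limma with the block, adjusted p = 0.054), and the dynein intermediate chain Dync1i1, at -0.53, is low, with between 2.43 and 10.8 normalized counts in the libraries.

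Of 20 tested genes for other huntingtin-binding proteins, with a median of 0.05, Prmt5 was the one that passed with the block among those named by rule. This arginine methyltransferase held 431, 596 and 314 normalized counts in R1 and 517, 820.1 and 527 in HN, higher on each date (log2 fold change 0.49, limma with the block, adjusted p = 0.0012). Ube2k, a ubiquitin-conjugating enzyme, at 0.46 (adjusted p = 0.0179) and Cbs, cystathionine beta-synthase, at -0.49 (adjusted p = 0.0346) also passed with the block (limma) and were named after their values were seen. F8a, whose human counterpart encodes the huntingtin partner HAP40, held between 10.4 and 18.9 normalized counts in R1 and between 6.08 and 10.8 in HN, and its log2 fold change of -0.59 did not pass (limma with the block, adjusted p = 0.437). The endophilin Sh3gl3, at -0.62, did not pass either (limma with the block, adjusted p = 0.0772), although its lines did not overlap.

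The 14 genes for huntingtin kinases, proteases and autophagy links had a median of 0.00. Sqstm1, the autophagy receptor p62, had a log2 fold change of 0.32 and passed with the block (limma, adjusted p = 0.0242). Casp6, a caspase that cleaves huntingtin, had the value furthest from 0, at -0.86, on between 2.84 and 22.9 normalized counts, and the calpain subunit Capn2 was at -0.45. Neither passed (limma with the block, adjusted p = 0.244 and 0.165).

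**Figure D4:**
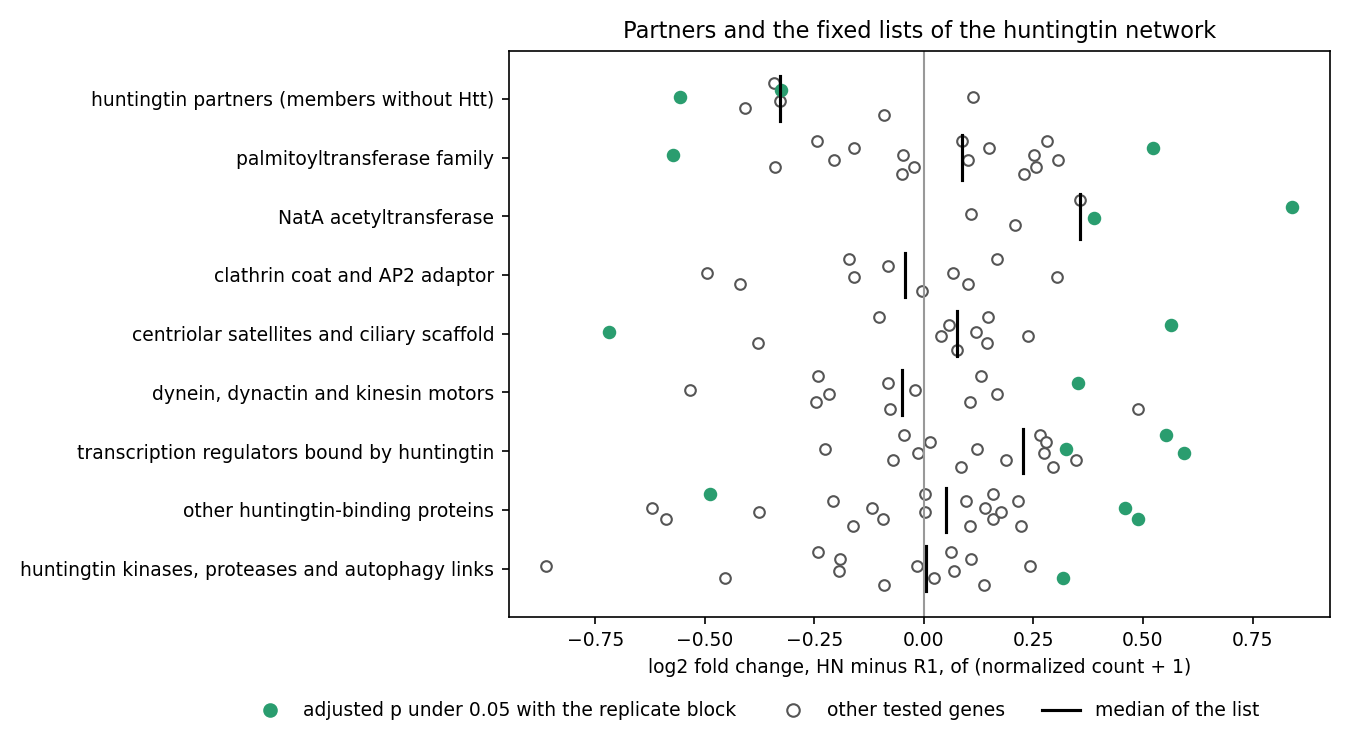
Log2 fold change of HN against R1 (x axis) of each tested gene in the 8 lists of the huntingtin network and of the 7 partners (top). Green points passed the adjusted p of 0.05 with the replicate block, open points did not, and black lines give the median of each list. The partner median lies at -0.33 and the list medians lie between -0.05 and 0.36.

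Since the deletion lies at the Htt locus, the genes around it were compared as well. Within 250 kb of Htt, 9 of 12 genes in the table were tested, and 0 passed the threshold without or with the block by limma. Over all tested genes 0.126% were lower and 0.119% higher without the block, and 4.02% and 5.46% with it. The 0 of 9 thus lies near the background. At an unadjusted p under 0.05 the counts were 0 without and 1 with the block, the latter being Mfsd10. Over all 14276 tested genes, limma with the block had 1601 higher and 1480 lower at this level. The log2 fold changes of the 9 neighbours ran from -0.52 (Dok7) to 0.31 (Mfsd10). The nearest tested gene, Grk4, ends 6435 bases before Htt and held between 3.70 and 12.1 normalized counts, too few to show any but a large change (log2 fold change 0.20, 95% interval from -1.37 to 1.76). More deeply measured neighbours gave narrower intervals, from -0.54 to 0.38 for Add1, an adducin, and from -0.33 to 0.52 for Lrpap1, an LDL receptor chaperone. The interval of Htt, from -3.34 to -1.71, does not meet those of Grk4, Add1 and Lrpap1, and it meets that of Dok7, from -2.91 to 1.87, which rests on between 1.22 and 24.3 normalized counts.

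**Figure D5:**
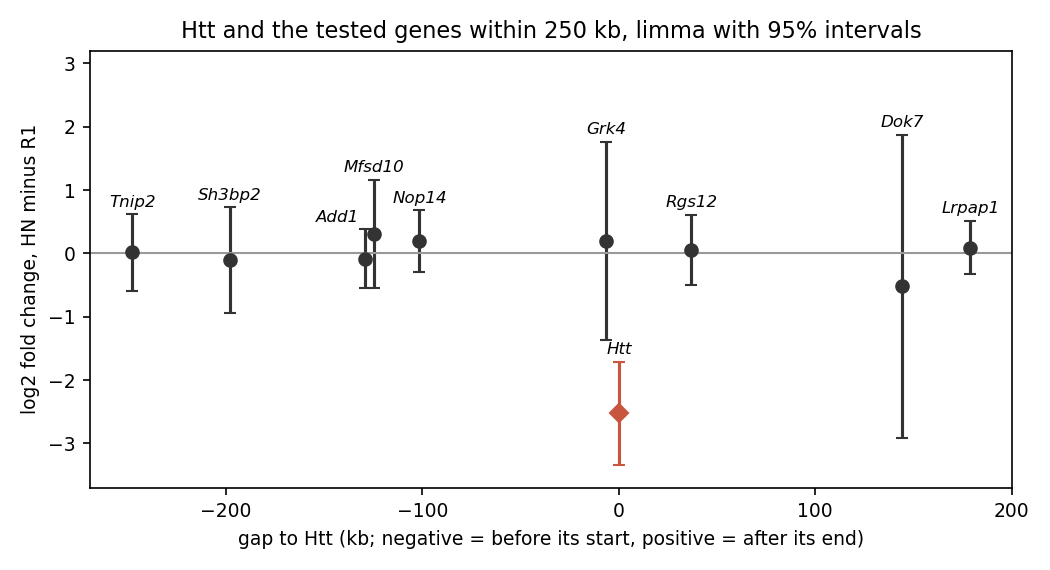
Log2 fold change of HN against R1 (y axis, limma, bars are 95% confidence intervals) of Htt (red) and of the 9 tested genes within 250 kb, by their gap to Htt in kb (x axis, negative before its start). Intervals of all 9 neighbours include 0, and that of Htt runs from -3.34 to -1.71.

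The pattern of Htt over the 6 libraries was set beside that of 7659 genes with a mean of at least 50 normalized counts. The most alike by Pearson's r of log2 values were Dnmt3a, a de novo DNA methyltransferase (r = 0.997), Psmd5, a proteasome assembly chaperone (0.993), Ivns1abp (0.988), Nr2f6, an orphan nuclear receptor (0.985), and Mrps30, a mitochondrial ribosomal protein (0.982). Dnmt3a held 85.2, 87.3 and 78.2 normalized counts in R1 and 30.4, 49.6 and 50.9 in HN, so that HN replicate 1 was the lowest library as for Htt. The partners were less alike, with r of 0.82 for Hip1, 0.69 for Pcm1, 0.59 for Zdhhc17, 0.48 for Hypk, 0.24 for Hip1r, 0.19 for Zdhhc13 and -0.22 for Hap1. These are descriptions over 6 libraries of 2 lines, and the 5 genes were chosen as the highest of many. The points share the difference between the lines and, within a date, their batch.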

How the data were processed

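RNA of 6 mESC libraries (R1 and HN, 3 each) was analysed from 1 table of gene values. Each value in the deposited table is a normalized signal, 1 per gene and library. The authors aligned paired-end reads to mm10 (GRCm38) with STAR, removed duplicates with Picard, counted reads on genes with HTSeq and divided each library by its DESeq2 size factor. Versions and the gene annotation are not given in the sources used here. In each library 100% of the values were whole multiples of 1 read within 0.01 read, and these reads served for depth, counting intervals and the count-based alternatives.

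Values were compared as log2(normalized count + 1) with limma 3.58.1 (variance trend, R 4.3.3) over 14276 genes with a mean of at least 5 normalized counts, with Benjamini-Hochberg adjustment over all of them. A gene passed the test at an adjusted p under 0.05. Fold changes on this scale understate changes of low genes. The comparison has no block, since the study's methods name none. Same-numbered replicates share a collection date in the labels. The deviations of same-date libraries from their line means correlated at 0.25, 0.69 and 0.77, and those of libraries from different dates at between -0.71 and 0.34. The highest of the latter was R1 replicate 1 with HN replicate 2, above the same-date value of replicate 1. The pairing is thus clear for replicates 2 and 3 and not for replicate 1, and the blocked fit is given where it changes a call. Nothing states whether the batches were separate thaws, and p-values measure the spread between these libraries. In limma the variance of each gene is also drawn toward a trend over all genes, so that it is not the spread of that gene alone.

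Alternatives were a block for the replicate, the quasi-likelihood test of edgeR 4.0.16 and DESeq2 1.42.0 run on recovered reads, each also with this block, pseudocounts of 0.1 and 10, no filter, a stricter filter (mean of 50), quantile normalization, median centring, no variance trend, an added limit on fold size, and leaving out each library. Leaving out replicate 3 of both lines was added after seeing the data. The limma fit without the block was tested on simulated counts that had the same dispersion for all genes and no date effect. The other fits were not tested in this way. The members and lists were chosen with earlier results of these data known. Named were all members, in each list the genes past the threshold without the block and the 3 with the largest absolute log2 fold change, tested genes within 250 kb of Htt, and the 5 most like Htt. Sequences are from GENCODE M21 and RefSeq, and 6 of the 8 genes have an entry in the promoter table. In 27 rows a date stands in place of the symbol, and these were named nowhere.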

Additional observations from a re-analysis of the deposited data

How the results depend on the processing

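The log2 fold change of Htt kept its sign under every alternative, between -2.81 and -2.002 when single libraries were left out. It stayed at -2.52 but missed the threshold with no filter (adjusted p = 0.408) and with no variance trend (0.325), and also without R1 replicate 1 (0.110). Over all genes these fits called 0 higher and 0 lower, 0 and 0, and 5 and 4, against 17 and 18 in the fit reported. At an unadjusted p under 0.05, 571 genes were higher and 627 lower with no filter, and 356 and 411 with no variance trend. The count of members lower in HN, 1 as reported, was 3 with the replicate block by limma, 3 by edgeR, 2 by DESeq2, 0 with no filter, 0 with no variance trend, from 0 to 1 when single libraries were left out, and 3 without replicate 3 of both lines with the block. The count of members higher in HN was 0 throughout. The replicate block raised the calls over all genes to 780 higher and 574 lower (limma), 920 and 685 (edgeR) and 334 and 178 (DESeq2), while DESeq2 without the block called 68 and 44, median centring 30 and 19, and quantile normalization 27 and 20. Leaving out single libraries gave ranges that crossed 0 for Hip1 minus Hip1r (-0.44 to 0.20), Hap1 (-0.059 to 0.25), Zdhhc13 (-0.24 to 0.0073), Tnip2 (-0.17 to 0.25), Sh3bp2 (-0.38 to 0.11), Add1 (-0.23 to 0.051), Mfsd10 (-0.16 to 0.63), Grk4 (-0.079 to 0.66), Rgs12 (-0.088 to 0.26), Map2 (-0.038 to 1.14), Rbfox3 (-0.60 to 1.14) and Dok7 (-1.48 to 0.37), and one that did not for Zdhhc17 minus Zdhhc13 (-0.37 to -0.11). Tnip2 also changed sign by edgeR (-0.0060), by DESeq2 (-0.015) and without replicate 3 of both lines (-0.13, with and without the block), where Sh3bp2 turned to 0.18. Htt in HN rests on 15 to 82 reads, and for partners with 34 to 92 reads per library, such as Zdhhc17, changes within the intervals given could not be detected at this depth.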
